A study of Mus musculus with 2 samples.

Results

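The Mir379 to Mir410 cluster is a run of microRNA genes on the distal part of mouse chromosome 12, inside the imprinted Dlk1-Dio3 domain. Its members here are all 38 rows of the deposited tables whose GENCODE M21 coordinates (mm10) lie, on either strand, in a window set around the cluster, out of 1973 rows. The outermost members, Mir379 and Mir3072, span chr12:109709060-109747960. Membership used position alone and no measured value, although the window was chosen with earlier results of these data known. The window also takes in Mir3072, which lies beyond Mir410. The small RNA fraction (under 30 bases) of whole lungs of B6NCrl mouse embryos at embryonic day 16.5 gave 2 libraries, which the labels call biological replicate 1 and biological replicate 2. Each came from pooled male and female embryos, 41 of them for replicate 2, while the number for replicate 1 is not given in the sources used here. No genotype, treatment or second condition is named, so the values describe a single group, and pools cannot be told apart from library preparations.

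A microRNA gene is transcribed as part of a longer primary transcript, from which Drosha cuts a hairpin and Dicer then cuts a duplex of about the length of the mature microRNA. A mature microRNA guides Argonaute to messenger RNAs mainly through its seed, bases 2 to 8 from its 5′ end. The genes of this cluster are expressed from the maternally inherited chromosome, as part of long non-coding transcription in which the lincRNA Mirg is annotated. The cluster is found in placental mammals and is best known from brain, where several of its microRNAs respond to neuronal activity, and from mice that lack it, which have defects in metabolic adaptation at birth.

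The members gave 295792 of 6376715 counts over microRNA genes in replicate 1 and 196939 of 4123748 in replicate 2. Reads were counted per gene, so the values do not say which of the arms of a hairpin a read came from. CPM below are counts scaled to a total of 1000000 over all microRNA genes of a library. They are not divided by gene length, because mature microRNAs are of nearly equal length (median 22 bases among the members). A gene with at least 10 counts in each library is called detected. Levels from a list of marker microRNAs are given as context and do not test whether the tissue was lung. The endothelial Mir126a was at 87277 and 79120 CPM in replicates 1 and 2. The smooth muscle Mir143 was at 70224 and 72270 CPM, and Mir145a, also of smooth muscle, at 1034 and 1120 CPM. The epithelial Mir200c was at 9926 and 10632 CPM and Mir429 at 14438 and 15090 CPM. Mir449a of multiciliated cells was at 14581 and 18445 CPM. In whole tissue, fewer cells of a type and less RNA per cell cannot be told apart.

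Mature sequences are printed to show seeds and likeness, and counts per gene do not say which of them a read came from. The first set is that of the 8 most abundant members, taken from RefSeq (GRCm38.p6) and written 5′ to 3′ with the seed in capitals. Of the 38 members, 37 matched a RefSeq gene with at least 1 mature sequence, 69 sequences in all, and Gm27379 is the exception.
miR-411-5p: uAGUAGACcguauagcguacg
miR-411-3p: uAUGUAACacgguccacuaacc
miR-487b-5p: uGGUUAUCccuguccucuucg
miR-409-5p: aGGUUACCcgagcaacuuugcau
miR-409-3p: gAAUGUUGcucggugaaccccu
miR-379-5p: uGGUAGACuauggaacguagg
miR-379-3p: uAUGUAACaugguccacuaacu
miR-369-5p: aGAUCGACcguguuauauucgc
miR-369-3p: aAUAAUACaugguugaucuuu
miR-541-5p: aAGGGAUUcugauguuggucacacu
miR-541-3p: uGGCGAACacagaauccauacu
miR-382-5p: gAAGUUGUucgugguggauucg
miR-382-3p: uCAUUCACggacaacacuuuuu
miR-376a-5p: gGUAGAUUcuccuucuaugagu
miR-376a-3p: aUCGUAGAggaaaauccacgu
The seeds printed here are all different from one another, except that miR-411-3p and miR-379-3p share theirs. Mir487b, Mir376c, Mir539, Mir485 and Mir453 each matched 1 mature sequence, and statements on seeds cover the matched sequences only. For Mir487b the printed arm is therefore not shown to be the source of its counts.

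The cluster held 4.64% of all microRNA gene counts in replicate 1 and 4.78% in replicate 2 (mean 4.71% ± 0.0969, SD, n = 2). Of its 38 members, 33 (86.8%) were detected, against 347 of 1973 (17.6%) over all microRNA genes. The median level of detected members was 355 CPM, and that of all detected microRNA genes was 180 CPM. These medians are taken over members that passed the count minimum and are given as a description. There were 12 members at 1000 CPM or more, 11 between 100 and 1000 CPM, 10 detected members under 100 CPM and 5 that were not detected.

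Mir411 led the cluster, at 9716 CPM in replicate 1 and 9197 in replicate 2 (mean 9457 ± 367, SD, n = 2). It held 20.1% of the counts of the cluster and ranked 23 among all detected microRNA genes. Its row (ENSMUSG00000065477.2) lies at chr12:109710175-109710256 on the plus strand, outside any annotated host gene. The next 3 members were close to one another. Mir487b was at 4887 and 6112 CPM (mean 5499 ± 867, chr12:109727333-109727414, no host gene). Mir409 was at 5260 and 4922 CPM (mean 5091 ± 239), in an intron of Mirg. Mir379, the first gene of the cluster, was at 4473 and 4447 CPM (mean 4460 ± 18.7, chr12:109709060-109709125, no host gene). The order of Mir487b and Mir409 was opposite in the libraries, so the data do not rank them, whereas Mir379 lay below both of them in each library.

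A second tier had means from 2061 to 3215 CPM. Mir369, reported in other work to raise translation of an AU-rich messenger RNA in resting cells, was at 3144 and 3286 CPM (mean 3215 ± 100.4) and overlaps an exon of Mirg. Mir541, in an intron of Mirg, was at 3248 and 3086 CPM (mean 3167 ± 114). Their order was opposite in the libraries too, and their means differed by less than 1 SD. Mir382 was at 2901 and 3043 CPM (mean 2972 ± 99.96), below both in each library, and overlaps an exon of Mirg. Mir376a, of a family whose precursors are known substrates of A-to-I RNA editing, was at 2515 and 2303 CPM (mean 2409 ± 150.3), and Mir299a was at 1959 and 2162 CPM (mean 2061 ± 143). Their ranges did not overlap.

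Mir381 was at 1760 and 2085 CPM (mean 1922 ± 229), below Mir299a in each library, although its value in replicate 2 exceeded that of Mir299a in replicate 1. Mir1193 was at 1017 and 1222 CPM (mean 1120 ± 145). Mir134, which limits the size of dendritic spines in neurons, was at 983 and 1075 CPM (mean 1029 ± 64.9), below Mir1193 in each library, although the ranges overlapped. The 3 most abundant members together held 42.6% ± 0.322 of the counts of the cluster, the 5 most abundant 58.9% ± 0.485 and the 12 most abundant 90.1% ± 0.239. The other 26 members thus shared the remaining part.

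**Figure D1:**
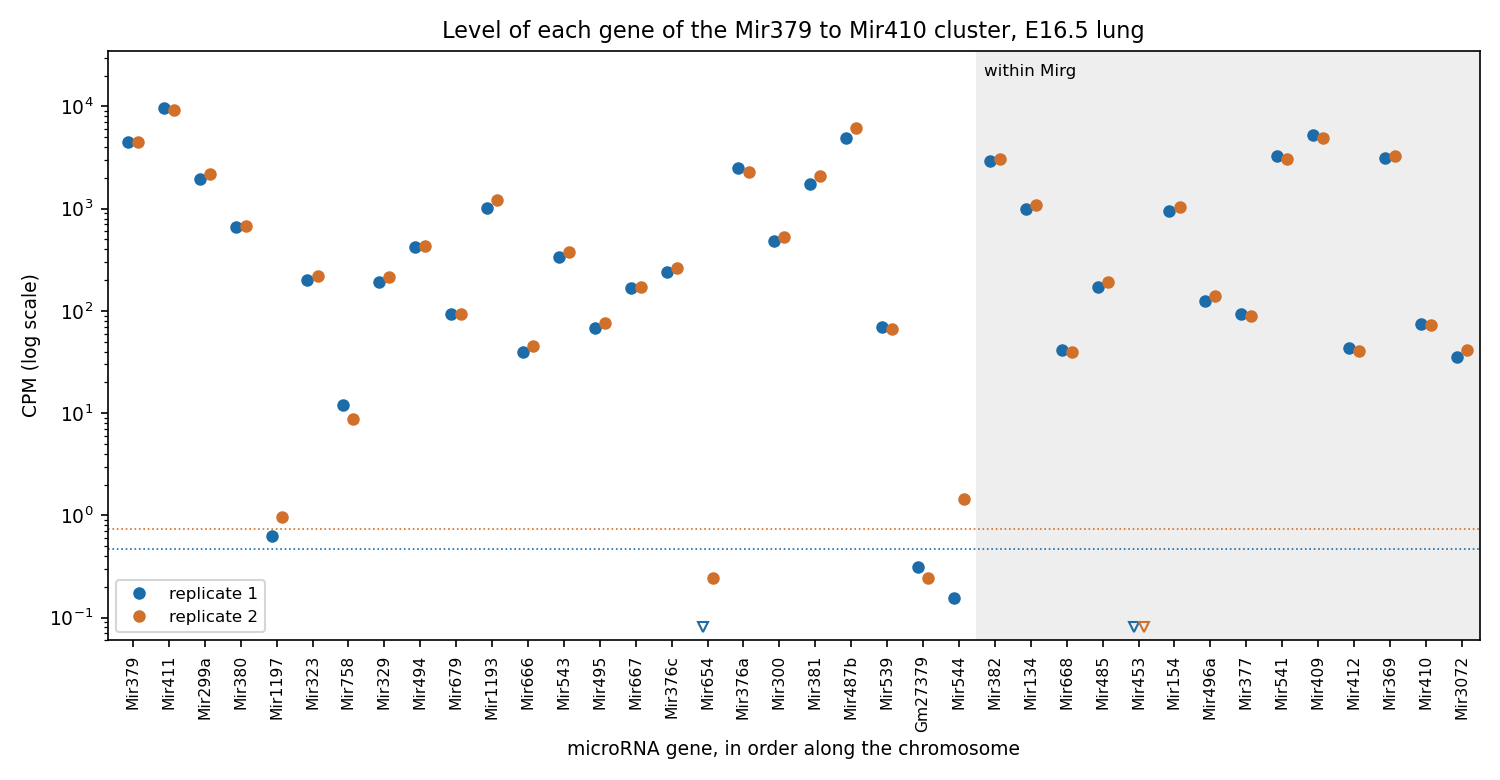
Level of all 38 members (CPM, log axis) in order along the chromosome, with a point for each library; dotted lines mark the level of 3 counts in each library, open triangles mark 0 counts and are placed at an arbitrary height, and the grey area marks members within Mirg. Points of the libraries lie close together for each detected member, while members range from 10.4 CPM (Mir758) to 9457 CPM (Mir411).

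Among the remaining detected members, Mir154 was at 957 and 1035 CPM and Mir380 at 660 and 671 CPM. Mir300 (484 and 526 CPM), Mir494 (417 and 432 CPM), Mir543 (334 and 376 CPM) and Mir376c (242 and 260 CPM) followed. Mir323, Mir329, Mir485, Mir667 and Mir496a had means between 131.8 and 210.3 CPM. Mir679, Mir377, Mir410, Mir495 and Mir539 had means between 67.9 and 93.3 CPM. Mir410, the gene that gives the cluster the end of its name, was at 75.0 and 73.0 CPM and ranked 26 of 38. Mir666, Mir412, Mir668 and Mir3072 had means of 38.5 to 42.7 CPM. Their ranges overlapped one another in part, so they have no order beyond that of their means. The lowest detected member, Mir758, had 77 and 36 counts (12.1 and 8.73 CPM).

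The 5 undetected members had at most 6 counts in a library. Mir1197 had 4 and 4 counts. Mir544 had 1 and 6 counts, Gm27379 2 and 1, Mir654 0 and 1, and Mir453 0 in both. A count of 0 allows up to 3 counts, or 0.470 CPM in replicate 1 and 0.727 CPM in replicate 2. The levels of Gm27379 and Mir654 lay under these limits. Limits and intervals here reflect counting error alone, because amplified reads that carry no molecular identifier may be copies of 1 molecule.

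The row names hide 4 abundant members. No row was matched for Mir409, Mir376a, Mir299a and Mir380, but each has a row for a gene annotated on the minus strand at the same place. Gm24321 (ENSMUSG00000093089.1, chr12:109743158-109743237) lies over Mir409 (chr12:109743158-109743236). Gm25252 (chr12:109723756-109723875) lies over Mir376a (chr12:109723781-109723848), Mir299b (chr12:109710645-109710693) over Mir299a (chr12:109710638-109710700) and Gm25750 (chr12:109711779-109711890) over Mir380 (chr12:109711803-109711863). The deposited counts are split by strand, and nearly all reads of these rows came from the plus strand.

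For Gm24321, 33540 of 33541 counts in replicate 1 and 20299 of 20299 in replicate 2 were on the strand of Mir409. For Gm25252 all 16039 and 9496 counts were on the strand of Mir376a, and for Gm25750 all 4210 and 2766 were on the strand of Mir380. For Mir299b, 12469 of 12494 counts (99.8%) and 8905 of 8915 (99.9%) were on the strand of Mir299a. These 4 rows held 22.4% of the counts of the cluster in replicate 1 and 21.1% in replicate 2. They also held 39.3% and 37.1% of all counts that the tables place on the strand opposite to a row, over all 1973 rows. The 34 plus-strand rows of the cluster had 0 counts on the opposite strand in both libraries. The minus strand of the whole cluster therefore had 26 counts in replicate 1 and 10 in replicate 2, which is 0.00879% and 0.00508% of the cluster.

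Most of the minus-strand counts, 25 and 10, fell on Mir299b. Its sequences are shown beside those of Mir299a because one lies within the other.
miR-299a-5p: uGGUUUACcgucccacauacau
miR-299b-5p: gGUUUACCgucccacauacau
miR-299a-3p: uAUGUGGGacgguaaaccgcuu
miR-299b-3p: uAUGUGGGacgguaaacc
The 21 bases of miR-299b-5p are contained in miR-299a-5p from base 2, and the 18 bases of miR-299b-3p are contained in miR-299a-3p from base 1. Reads that lie within these shared stretches match both strands of the locus. Reads that matched several loci stand on a line of their own in the tables (29.97% and 31.8% of all reads), so both genes may be counted too low, by an amount that was not tested. No row was matched either for Mir376b, at chr12:109723458-109723539, or for the minus-strand gene Gm44322, and these were not analysed here. Mir376c was the only member whose hairpin shares 22 bases with that of a microRNA gene at another place, namely Mir376b, and its level is uncertain for that reason.

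Neighbours in the cluster differed widely. The 33 detected members form 32 pairs of neighbours with gaps of 20 to 5568 bases, and the median fold between the mean CPM of neighbours was 4.84. In 11 pairs the fold was over 10, and in 4 it was under 2. The 12 pairs within 500 bases had a median fold of 6.54, and the pairs farther apart had 4.36. The widest step was at the distal end, where Mir412 lies 51 bases from Mir409 and 49 bases from Mir369. Mir412 had 43.8 and 40.3 CPM, which was 121-fold below Mir409 (120.2-fold in replicate 1 and 122-fold in replicate 2) and 76.5-fold below Mir369 (71.9 and 81.6). Mir410, 218 bases beyond Mir369, was 43.5-fold below it.

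Other steep steps had the same direction in both libraries. Mir487b was 81.0-fold above Mir539, its neighbour at 714 bases (70.0 and 92.7 by library). Mir1193 was 12-fold above Mir679, although only 20 bases separate their annotated hairpins (10.8 and 13.2 by library). Mir541 was 34.9-fold above Mir377 (35.2 and 34.7). These folds far exceeded the difference between libraries, which was at most 1.38-fold for a detected member. Efficiency of adapter ligation differs between small RNA sequences, and its part in differences between genes was not tested.
The 2 mature sequences of Mir412 are given for comparison with those of its abundant neighbours Mir409 and Mir369 above.
miR-412-5p: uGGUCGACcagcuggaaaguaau
miR-412-3p: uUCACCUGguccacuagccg

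**Figure D2:**
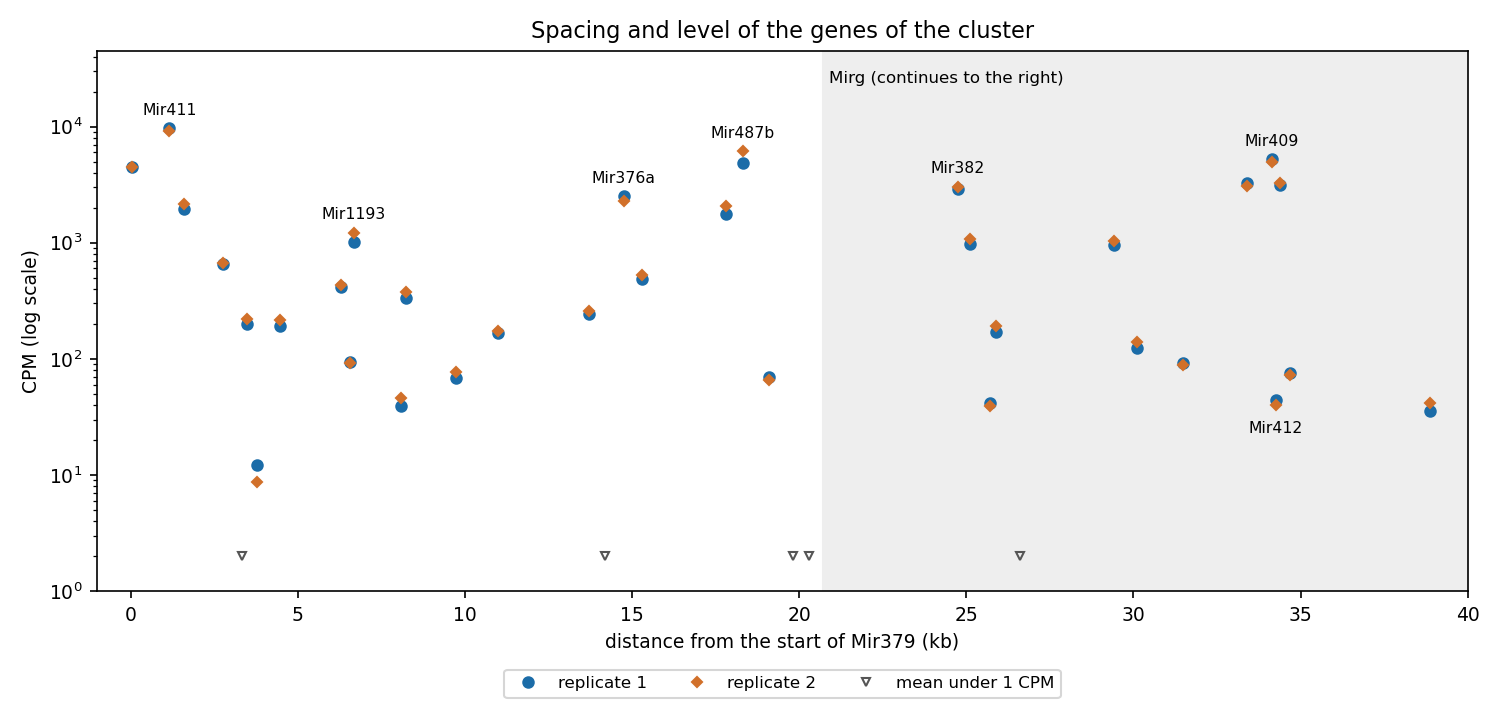
Level of each member (CPM, log axis) against its distance from the start of Mir379 in kb, with circles for replicate 1 and diamonds for replicate 2; open triangles mark the members with a mean under 1 CPM at an arbitrary height and the grey area marks Mirg. High and low members are interspersed along the 38.9 kb, and Mir412 sits between Mir409 and Mir369 at a level 121-fold and 76.5-fold lower.

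Position relative to Mirg separated the members only loosely. Mirg (chr12:109729764-109749460, plus strand) contains 14 members, 9 of them overlapping an annotated exon and 5 within introns. Of these 14, 13 were detected, with a median of 181 CPM, and they held 36.8% and 35.7% of the counts of the cluster. The 24 members upstream of Mirg have no annotated host gene. Of them 20 were detected, with a median of 390 CPM, and they held 63.2% and 64.3% of the counts. Among the 5 highest members, Mir411, Mir487b and Mir379 lie upstream and Mir409 and Mir369 within Mirg.

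Several members are alike in sequence. Over 2314 pairs of mature sequences from different members, 7 pairs had at least 80% identical bases in an end-to-end alignment. The most alike were miR-379-3p and miR-411-3p, with 20 of 22 bases identical and the same seed, printed above. Their genes are neighbours, 1049 bases apart, and Mir411 was 2.12-fold above Mir379 (2.17 and 2.07 by library). In 3 further pairs, shown here, the bodies are alike while the seeds differ.
miR-300-3p: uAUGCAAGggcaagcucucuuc
miR-381-3p: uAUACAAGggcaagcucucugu
miR-154-3p: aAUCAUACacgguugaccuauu
miR-369-3p: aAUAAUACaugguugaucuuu
miR-543-3p: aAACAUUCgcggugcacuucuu
miR-495-3p: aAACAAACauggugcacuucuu
Mir381 was 3.80-fold above Mir300, with 19 of 22 bases identical. Mir369 was 3.23-fold above Mir154 and Mir543 was 4.91-fold above Mir495, with 18 of 22 bases identical in each pair. At the same 18 of 22 bases and also with different seeds, miR-379-3p paired with miR-380-3p and miR-494-5p with miR-154-5p. Mir379 was 6.70-fold above Mir380, the widest fold of these pairs, and Mir154 was 2.35-fold above Mir494. Each of these folds had the same direction in both libraries. The remaining pair, miR-1197-5p and miR-496a-5p, includes the undetected Mir1197.

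Among the 69 mature sequences there were 64 seeds, and 5 of these were shared by 2 members. The sequences of these groups, other than those already shown, are given so that the shared seeds can be read.
miR-1193-5p: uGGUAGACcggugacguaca
miR-494-5p: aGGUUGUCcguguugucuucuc
miR-410-5p: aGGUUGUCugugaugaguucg
miR-496a-5p: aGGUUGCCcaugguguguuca
miR-453: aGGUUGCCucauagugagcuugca
miR-758-5p: uGGUUGACcagagagcacacg
miR-1197-5p: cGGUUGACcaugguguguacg
The genes that share the seed of miR-379-3p and miR-411-3p summed to 14189 and 13644 CPM (mean 13916 ± 385, SD, n = 2). Those that share the seed of miR-379-5p and miR-1193-5p, Mir379 and Mir1193, summed to 5490 and 5669 CPM. Mir494 and Mir410 summed to 492 and 505 CPM, Mir496a and Mir453 to 124 and 139.7 CPM, and Mir758 and Mir1197 to 12.7 and 9.70 CPM. These are sums over genes and not over arms, so they are upper limits on the counted reads that carry the seed. Each seed shared within the cluster was found in no RefSeq mouse microRNA gene outside it.

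A further 10 seeds of the cluster occur in a microRNA gene elsewhere in the genome. The detected genes among those elsewhere were Mir370, which lies in the same imprinted domain and shares the seed of miR-1193-3p, at 259 and 287 CPM, and Mir672, with the seed of miR-377-5p, at 441 and 484 CPM. Mir362, with the seed of miR-329-3p, was at 90.6 and 75.7 CPM, below Mir329 (193 and 217 CPM). Mir1983, with the seed of miR-412-3p, was at 746 and 736 CPM, above Mir412. For Mir7229, with the seed of miR-411-5p, and Gm51294, with that of miR-495-3p, no row was matched, so their levels are not known. Several short runs were chosen after the sequences were seen and searched as written in the mature RNA. GGUUG, the run with the most matches among them, occurred in 12 of the 69 mature sequences (17.4%), each from another member. It occurred in 43 of 1665 mature sequences outside the cluster (2.58%). The members with it ranged from Mir453 with 0 counts to Mir369 at 3215 CPM.

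The libraries were compared gene by gene, to see how far the cluster varied between the pools. The direction of its total depended on the scaling. Replicate 2 over replicate 1 was 1.03 when scaled to all microRNA gene counts (95% exact interval 1.02 to 1.04, for counting error only), 0.993 with the TMM factors of edgeR (0.988 to 0.999) and 0.999 with DESeq2's size factors (0.993 to 1.004). All 33 detected members lay within 1.5-fold, against 314 of 347 (90.5%) over all detected genes. Mir487b had the widest called difference, at 4887 against 6112 CPM, or 1.251-fold higher in replicate 2 (1.23 to 1.27, adjusted p = 1.19e-150, exact binomial test). Mir1193 was 1.202-fold higher (1.16 to 1.247) and Mir381 1.18-fold higher (1.15 to 1.22). Mir485 was 1.13-fold higher (1.03 to 1.24), a call that was lost with TMM or DESeq2 scaling, and Mir543 1.12-fold higher (1.05 to 1.201) in replicate 2.

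In the opposite direction the differences were narrower. Mir376a was 1.09-fold higher in replicate 1 (1.06 to 1.12, adjusted p = 4.24e-11, exact binomial test), at 2515 against 2303 CPM. Mir409 was 1.07-fold higher (1.05 to 1.09), Mir411 1.06-fold higher (1.04 to 1.07) and Mir541 1.05-fold higher (1.03 to 1.08) in replicate 1. Mir379, with 28524 and 18337 counts, did not pass (0.994-fold in replicate 2 over replicate 1, 0.976 to 1.01). The detected member with the widest ratio was Mir758, whose 77 and 36 counts gave 0.723-fold (0.473 to 1.09), and it did not pass either.

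By that test, 16 of 33 detected members (48.5%) passed at an adjusted p under 0.05, 4 higher in replicate 1 and 12 in replicate 2. Over all 347 detected genes 47.0% passed, 16.4% higher in replicate 1 and 30.5% in replicate 2, so the share of members is near the background. The split rested on how the libraries were scaled. TMM scaling in edgeR left 5 members higher in replicate 1 and 6 in replicate 2, and the size factors of DESeq2 left 5 and 7. Under both, Mir379 passed as higher in replicate 1, while Mir300, Mir329, Mir369, Mir382 and Mir485 no longer passed. Mir154 was lost with TMM as well. The median log2 ratio of replicate 1 over replicate 2 was -0.069 over the detected members and -0.052 over all detected genes. The test weighs 2 libraries against counting error alone and holds no estimate of the spread between pools.

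Markers of other tissues moved between the libraries as well. Mir122 of liver was 5.39-fold and Mir206 of skeletal muscle 2.19-fold higher in replicate 2. Mir451a of red cells was 1.83-fold and Mir208a of heart 1.65-fold higher in replicate 1. Mir144, also of red cells, and Mir208b, also of heart, were only 1.201-fold and 1.123-fold higher in replicate 1. The size of these shifts thus differed between markers of the same tissue. Of the 20 markers listed, 19 matched a row and 13 were detected. Mir133b of muscle was at 3.29 and 9.94 CPM, 3.02-fold higher in replicate 2. Mir9-3 of neural tissue, at 0.470 and 3.39 CPM, was not detected. Mir1a-1, Mir133a-1, Mir133a-2, Mir9-2 and Mir124a-1 had 0 counts in both. These genes have copies elsewhere with the same mature sequence, and reads that match several loci are not counted to any gene, so their 0 does not show that the microRNA was absent. The part of such tissues in the differences of the cluster was not tested.

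**Figure D3:**
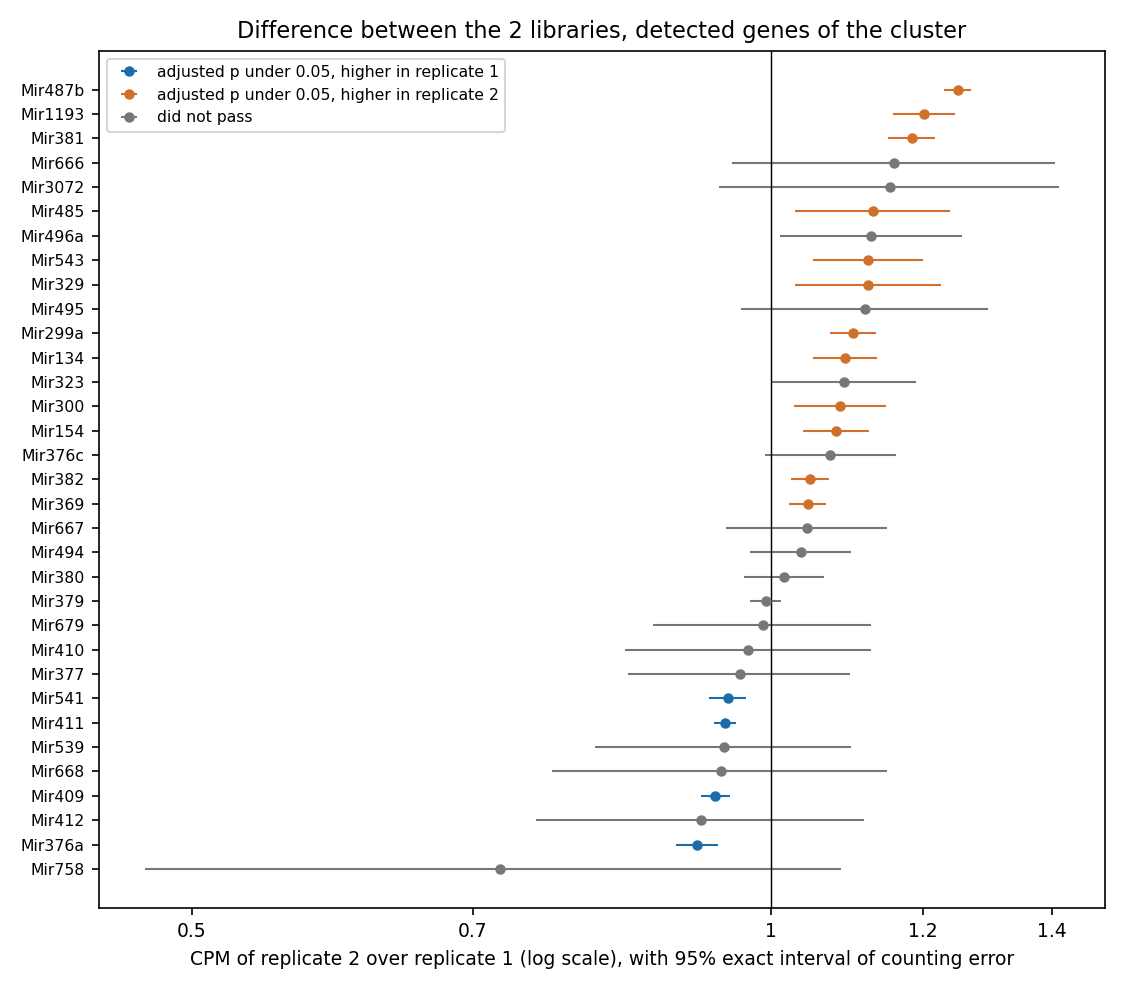
CPM of replicate 2 over replicate 1 (log axis) for the 33 detected members, with 95% exact intervals of counting error as bars and colours for members whose adjusted p was under 0.05. Mir487b, Mir1193 and Mir381 sit farthest to the right at 1.251-, 1.202- and 1.18-fold, and Mir758 farthest to the left with the widest bar.

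Other microRNA regions give a scale for these values. The microRNA genes around Rtl1, upstream in the same domain, held 1.402% and 1.56% of gene counts, less than the Mir379 to Mir410 cluster in both libraries, with 14 of 20 detected. The detected genes there had a median of 437 CPM, and their levels spanned 931-fold, against 909-fold for the cluster. The genes of the imprinted Sfmbt2 locus on chromosome 2 held 0.321% in each library, with 10 of 107 detected and a median of 143 CPM. Of these 107 genes, 81 had 0 counts in both libraries. Reads that match several loci are counted to no gene, so a region of genes alike in sequence may be counted too low. How far that lowers the share of the Sfmbt2 genes was not tested. The 7 genes of the Mir322 region on chromosome X held 10.03% and 10.2%, led by a single gene at 84676 CPM. All 7 were detected, with a median of 996 CPM. In total the region around Rtl1 was 1.11-fold higher in replicate 2 (1.10 to 1.13), and with TMM factors 1.08-fold higher. Of its 14 detected genes, 1 passed as higher in replicate 1 and 9 as higher in replicate 2, where 16.4% and 30.5% of all detected genes did. With TMM factors these were 1 and 6, and over all 347 genes 78 and 75 in place of 57 and 106. No test of the difference between regions was made.

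**Figure D4:**
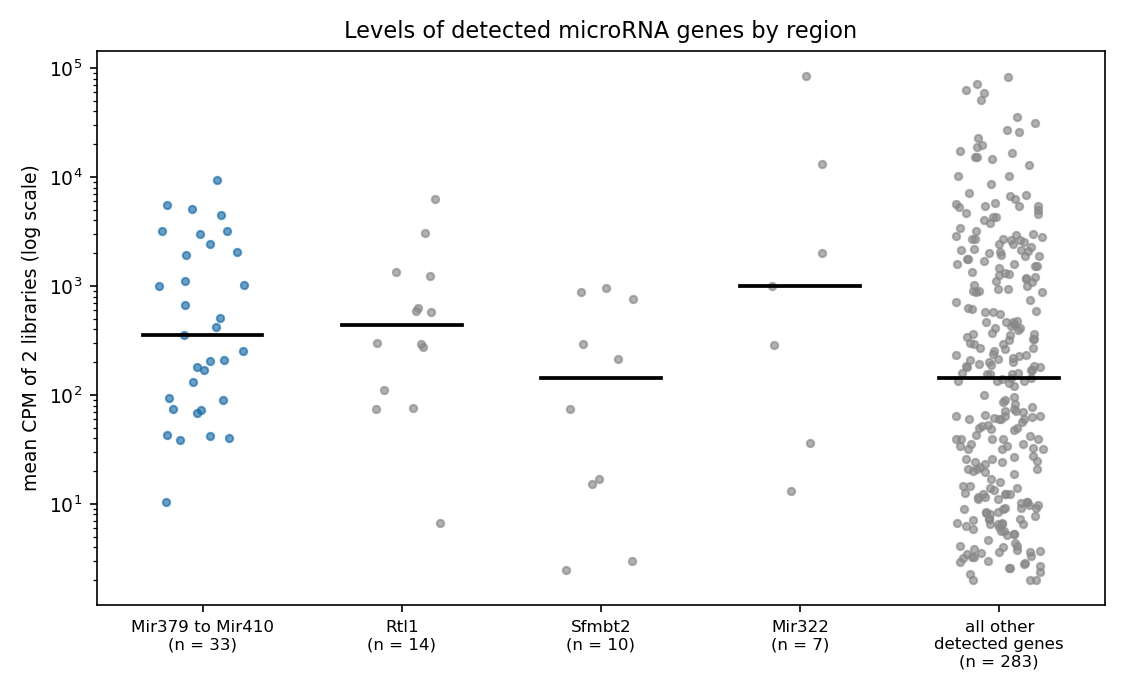
Mean CPM over both libraries (log axis) of detected microRNA genes in the cluster, in the 3 comparison regions and in the other 283 detected genes, with a point for each gene and a bar at the median. The cluster has a median of 355 CPM and its highest gene lies at 9457 CPM, whereas the other genes have a median of 144 CPM.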

How the data were processed

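The authors deposited, for each library, a table of read counts per microRNA gene with no normalization, on mm10 with GENCODE M4 per the readme deposited with it. For the aligner, the counter and the trimming, nothing is given in the sources used here. The tables carry no column names. In every gene row column 2 equals column 3 plus column 4, and these were read from the values as counts on either strand, on the strand of the row and on the opposite strand. Column 2 was used. Counts of 4 minus-strand rows were given to the plus-strand gene at the same place and are named by it. The 4 summary lines stayed out of totals. Coordinates are from GENCODE M21 (1894 of 1973 identifiers matched) and sequences from RefSeq. Libraries were compared by a two-sided exact binomial test over all 347 detected genes with Benjamini-Hochberg adjustment (Python 3.11.15, scipy 1.17.1), and edgeR 4.0.16 and DESeq2 1.42.0 gave alternative scaling. Fold intervals are exact Clopper-Pearson intervals at 95%. The calculations were tested on simulated counts with counting error only, scaled to the genes left unchanged. Those counts cover neither the spread between pools nor the choice of scaling. Members, lists and regions were chosen with earlier results of these data known. Members named singly are the 12 highest by mean, the 5 called members with the largest fold in each direction, the 3 lowest detected, all minus-strand rows, shared seeds and members at 0. Others are added for completeness.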

Additional observations from a re-analysis of the deposited data

How the results depend on the processing

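The share of gene counts held by the cluster (4.64 to 4.78%), the number of detected members (33) and the fold between its highest and lowest detected member (805 to 1054) took these values when either replicate was left out, and the minus-strand share was 0.00508 to 0.00879%. With 1 library left, no call can be tested. Strand-resolved counts gave 34 detected members, because Mir299b then counted on its own. With a count minimum of 1 the ratio of the mean CPM of Mir411 to that of Gm27379, then the lowest, was 34008 and the median log2 ratio -0.086, since more low members entered. That ratio rests on 3 counts of Gm27379 over both libraries, and the ratio of summed counts has a 95% exact interval of 11392 to 161449. Members higher in replicate 2 numbered 6 with TMM, 7 with DESeq2's size factors and 7 when scaled to the total of the cluster (added after seeing the data), against 12, and the median log2 ratio was -0.017, -0.025 and -0.027. The total of the cluster, replicate 2 over replicate 1, turned from 1.03 to 0.993 with TMM and 0.999 with DESeq2's size factors (both added after seeing the data). Over all genes the split moved from 57 and 106 to 78 and 75 with TMM and 76 and 80 with DESeq2. Of the 16 members that passed, 10 passed under all of these scalings and the strand-resolved counts. No member that passed changed its direction. No paired analysis was possible because there is a single group. Depth limits the members under 10 counts, and Mir758.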
